A study of Danio rerio with 5 samples.

Results

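The genes described here are 9 genes of serotonin synthesis, storage, uptake and breakdown in the zebrafish, among the 31540 genes of each deposited table: the tryptophan hydroxylase genes tph1a, tph1b and tph2, the decarboxylase gene ddc, the vesicle transporter gene slc18a2, the serotonin transporter genes slc6a4a and slc6a4b, the monoamine oxidase gene mao and the acetyltransferase gene aanat2. They were found by gene name, and all 9 names matched a row. The set was built around tph1b because its total gene reads were much higher in 24h than in Control libraries. Its reads in this comparison chose the set, so the fold changes of the 9 genes are given as a description with no test.

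RNA was sequenced from caudal fin tissue that regrows after the fin of a zebrafish (Danio rerio) is cut. The labels put 3 libraries in a group called 24h and 2 in a group called Control, and both groups are labelled as regenerated tissue. The series as a whole concerns fins between 1 and 3 days after amputation. What the Control samples were is not stated, and no time or amputation is ascribed to them here. The labels used here give no strain, genotype, age or pooling of animals, and they do not say that samples came from separate animals. P-values therefore reflect the spread among the 5 samples alone, and that spread may be technical. The libraries held 14958600 to 22341452 reads in genes in the 24h group and 15448344 and 18887167 in the Control group. Epidermal genes were abundant in both groups, with the basal keratin gene krt5 at 20552 ± 1930 TPM in 24h libraries (SD, n = 3) and 27508 ± 3418 TPM in Control libraries (SD, n = 2). The gene col10a1a, a marker of bone-forming cells, stood at 24.1 ± 19.8 TPM in 24h libraries (SD, n = 3) and 9054 ± 116.6 TPM in Control libraries (SD, n = 2).

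Serotonin is made from the amino acid tryptophan. A tryptophan hydroxylase adds a hydroxyl group, the slow step that sets the rate, and the aromatic amino acid decarboxylase Ddc then removes the carboxyl group. Slc18a2 (VMAT2) loads the amine into vesicles, Slc6a4 (SERT) takes it back into cells, and monoamine oxidase starts its breakdown, while an Aanat enzyme turns it towards melatonin. In mammals TPH2 is the form of serotonergic neurons and TPH1 acts mostly outside the brain. Zebrafish carry a pair of TPH1 copies, of which tph1b is used as a marker of the regenerating fin mesenchyme.

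The first step of the pathway was represented almost wholly by tph1b. Levels are the deposited TPM, a length-corrected share of each library that can be compared between genes. The level of tph1b was 373, 604 and 528 TPM in the 24h libraries, against 19.96 and 26.6 TPM in the Control libraries. All 24h libraries lay far above both Control libraries, and among the 31540 genes it ranked between 234 and 375 by TPM in 24h libraries and at 4497 and 5592 in Control libraries. The means were 502 ± 117.6 TPM (SD, n = 3) in 24h and 23.3 ± 4.71 TPM (SD, n = 2) in Control, and the log2 fold change fitted on total gene reads was 4.42 ± 0.24 (SE). The gene lies on chromosome 7 from 32835182 to 32843734 (GRCz10, minus strand) and overlaps no other gene of the tables. Of its 32342 reads, 32341 were unique to it, 54.3% crossed an exon-exon junction and 5.87% lay in introns.

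The other copy, tph1a, was at 0.437, 0.537 and 1.14 TPM in the 24h libraries and 0.596 and 0.373 TPM in the Control libraries. These values rest on 5 to 15 reads a library, and the groups overlap. The neuronal form tph2 was at 1.47, 1.65 and 0.947 TPM in 24h libraries and 1.48 and 2.12 TPM in Control libraries, again with overlapping groups. Of its 257 reads 43.2% were intron reads, against 5.66% of the 53 reads of tph1a, a larger intron share for tph2. The log2 fold changes were 0.34 ± 0.56 (SE) for tph1a and -0.35 ± 0.35 (SE) for tph2. In 24h libraries tph1b stood 463 to 1126 times above tph1a and 254 to 558 times above tph2 in TPM, and in Control libraries 33.5 to 71.3 times and 12.5 to 13.5 times.

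**Figure D1:**
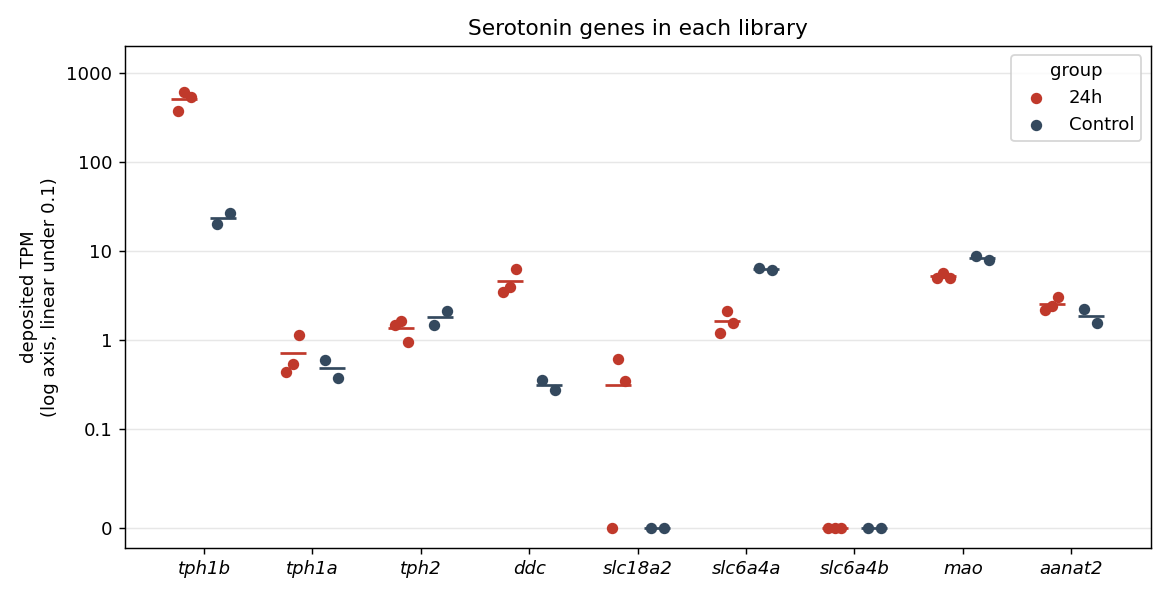
Deposited TPM of the 9 serotonin genes in each library (points) with group means (lines), 24h in red and Control in dark blue, on an axis that is logarithmic above 0.1 and linear below. The points of tph1b lie between 373 and 604 TPM in 24h libraries and at 19.96 and 26.6 TPM in Control libraries, and no other gene of the set passes 8.64 TPM in any library.

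The second step was also higher in 24h libraries, from a far lower level. The decarboxylase gene ddc was at 3.49, 3.97 and 6.23 TPM in 24h libraries, against 0.353 and 0.272 TPM in Control libraries, from 174 to 186 reads a library and from 18 and 9. The groups do not overlap, and the log2 fold change was 3.57 ± 0.36 (SE). On chromosome 16 from 8384813 to 8429020, it had 5.45% intron reads and 41.3% exon-exon reads, shares close to those of tph1b for introns and lower for junctions. The TPM of tph1b was 84.8 to 152 times that of ddc in 24h libraries and 56.6 and 98.0 times in Control libraries. These ratios overlap between the groups, and tph1b was far more abundant than ddc in each library. By TPM tph1b was highest in 24h replicate 2, while ddc was highest in 24h replicate 3.

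The storage step was at the edge of detection. The vesicle transporter gene slc18a2 counted 0, 16 and 4 reads in 24h and 0 and 1 in Control, at most 0.602 TPM. The 1 Control read was an intron read, while 13 of the 21 reads in all libraries crossed a junction. Summed over libraries and divided by their sizes, its reads were 11.5 times as many in 24h as in Control (95% exact Clopper-Pearson interval from 1.83 to 476, for counting error alone). The interval leaves out the spread between libraries, and 16 of the 20 reads in 24h came from 1 library. The groups overlap, with 0 reads in replicate 1 of both, so no difference between them is read from this ratio. A count of 0 allows up to 3 reads, or 0.134 to 0.201 CPM (reads scaled to library size) in these libraries.

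The uptake gene slc6a4a and the breakdown gene mao were lower in 24h libraries. The serotonin transporter gene slc6a4a was at 1.19, 2.11 and 1.56 TPM in 24h libraries, against 6.39 and 6.05 TPM in Control libraries. The groups stand apart, the log2 fold change was -1.93 ± 0.27 (SE), and 90.1% of its 354 reads crossed an exon-exon junction, the highest share of the set. It lies on chromosome 15 from 28676149 to 28685626 and overlaps a gene model on the opposite strand, and whether counting used strand is not given in the sources used here. Its copy slc6a4b had 1 read in all libraries together, an intron read in a 24h library, and 0 TPM throughout. The monoamine oxidase gene mao, the single monoamine oxidase gene of zebrafish, was at 4.96, 5.61 and 4.90 TPM in 24h libraries and 8.64 and 7.84 TPM in Control libraries, and the groups do not overlap. Its log2 fold change was -0.64 ± 0.16 (SE). In bulk tissue, fewer cells of a type and less RNA per cell cannot be told apart.

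The melatonin side branch was present at a low level in both groups. The acetyltransferase gene aanat2, the pineal form in fish, was at 2.19, 2.40 and 3.02 TPM in 24h libraries and 2.201 and 1.53 TPM in Control libraries. The groups overlap, and the log2 fold change was 0.22 ± 0.32 (SE). A share of 9.09% of its 176 reads crossed a junction and 20.5% were intron reads.

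**Figure D2:**
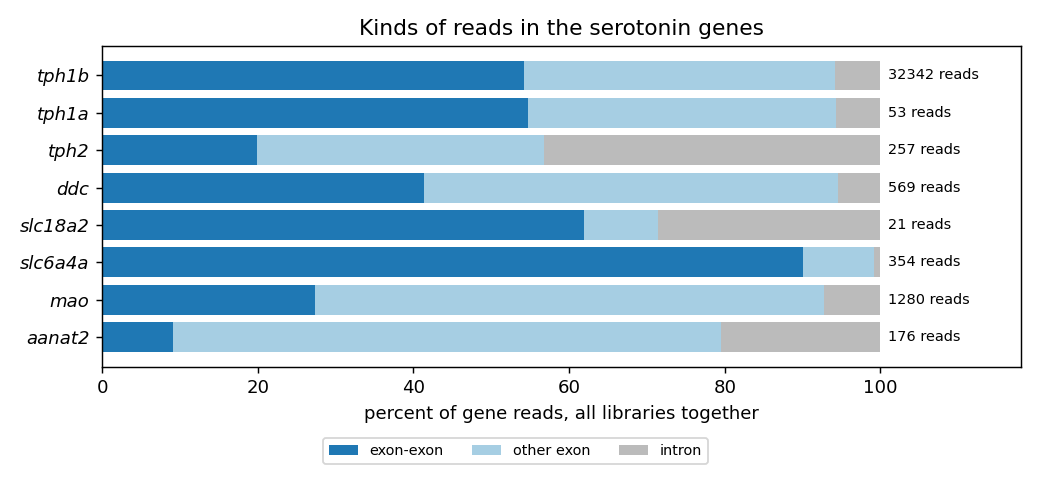
Share of the gene reads of 8 serotonin genes that crossed an exon-exon junction (blue), lay elsewhere in exons (light blue) or in introns (grey), over all 5 libraries, with the number of reads at the right. Intron reads made up 43.2% in tph2 and 5.87% in tph1b, and exon-exon reads 90.1% in slc6a4a.

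Set side by side by mean TPM, the order in 24h libraries was tph1b, mao, ddc, aanat2, slc6a4a, tph2, tph1a, slc18a2 and slc6a4b. Within it mao and ddc overlap in their library values, as do slc6a4a and tph2, tph2 and tph1a, tph1a and slc18a2, and slc18a2 and slc6a4b, so these neighbours do not differ beyond their spread. In Control libraries the order was tph1b, mao, slc6a4a, aanat2, tph2, tph1a and ddc, with aanat2 and tph2 overlapping and with slc18a2 and slc6a4b at 0 TPM. The gene ddc stood above aanat2, slc6a4a, tph2 and tph1a in the 24h libraries and below all 4 of them in the Control libraries. The gene tph1b made up 96.5% to 97.3% of the summed TPM of the 9 genes in 24h libraries and 50.4% and 59.4% in Control libraries, while the other 8 together summed to 13.7 to 18.1 TPM in 24h libraries and 18.2 and 19.7 TPM in Control libraries. The rest of the set thus summed to less in 24h replicates 1 and 2 than in either Control library. The sums of 24h replicate 3 and Control replicate 2 were nearly equal (18.13 and 18.20 TPM). Within these sums there was more ddc and less slc6a4a and mao in the 24h libraries.

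In GRCz10 coordinates of the deposited tables, tph1a lies on chromosome 25 from 8015128 to 8035938, tph2 on chromosome 18 from 17000698 to 17011990 and slc18a2 on chromosome 17 from 23762300 to 23791308. The gene slc6a4b lies on chromosome 5 from 19465994 to 19484972, mao on chromosome 9 from 33851779 to 33916787 and aanat2 on chromosome 3 from 54633180 to 54639104. No chromosome holds more than 1 of the 9 genes.

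Of the 9 genes, 7 passed the filter on low counts, and slc18a2 and slc6a4b did not. Among the 7, the groups did not overlap for tph1b and ddc, higher in 24h libraries, and for slc6a4a and mao, lower there. These are 4 genes, beside 56.8% of the 19034 genes tested. Nothing is read from this count, since the comparison also chose the set.

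The remaining results concern genes around the pathway, in 9 lists with 84 rows in the tables, of which 54 passed the filter. By edgeR's quasi-likelihood test, 21 of the 54 were lower in 24h libraries, beside 14.8% of all genes tested, and tgm1l4 alone was higher, beside 9.43% of all genes tested. The median log2 fold change of the 54 was -0.61, against -0.0043 over all genes tested. Leaving out Control replicate 1 reduced the lower genes to 10, and leaving out Control replicate 2 to 13.

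Tryptophan hydroxylases need tetrahydrobiopterin as a cofactor, and most genes tested that make and recycle it were lower in 24h libraries. Of 9 cofactor genes tested, 6 were lower in 24h libraries, beside 14.8% of all genes tested. The median of the 9 log2 fold changes was -0.86, and the cofactor symbols pts and pcbd2 matched no row. The gene gch1, of GTP cyclohydrolase, the first enzyme of the route, was at 3.23, 4.96 and 4.05 TPM in 24h libraries and 13.2 and 12.2 TPM in Control libraries (log2 fold change -1.55 ± 0.17 SE, edgeR adjusted p = 0.00085). Its copy gch2, which in fish acts in pigment cells, averaged 0.344 ± 0.108 TPM (SD, n = 3) in 24h and 17.0 ± 0.534 TPM (SD, n = 2) in Control, a log2 fold change of -5.47. The gene gchfr, whose protein regulates the cyclohydrolase, changed by -2.43 (it overlaps dnajc17 on the opposite strand), sprb, a sepiapterin reductase gene, by -2.11, and the recycling genes qdpra and pcbd1 by -0.86 and -0.46 on the log2 scale. The most abundant of the list was pcbd1, at 66.5 ± 5.37 TPM (SD, n = 3) in 24h and 94.7 ± 0.624 TPM (SD, n = 2) in Control. The calls of sprb and pcbd1 were lost when either Control library was left out, and that of pcbd1 also without 24h replicate 2 or with library size only (edgeR adjusted p up to 0.18). The sepiapterin reductase copy spra (-0.20), qdprb1 (0.25) and dnajc12 (-0.83), whose protein is a co-chaperone of the hydroxylases, did not pass. The genes gch1, spra, qdpra and pcbd1, lower or not, had 159 reads or more in each 24h library.

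Tetrahydrobiopterin also serves the other aromatic amino acid hydroxylases, and those tested were lower in 24h libraries. The phenylalanine hydroxylase gene pah was at 1.91, 1.21 and 2.21 TPM in 24h libraries and 132 and 109 TPM in Control libraries. Its fitted log2 fold change was -6.06 ± 0.25 (SE, edgeR adjusted p = 1.3e-05). The tyrosine hydroxylase copy th2 had 3 reads in 24h and 27 in Control, which scaled to library sizes is 0.0637 times as many (exact 95% interval from 0.0124 to 0.207, edgeR adjusted p = 0.0094). It lies 588 bases from pah on the same strand, and whether reads of pah enter the count of th2 was not tested. The call of th2 was lost without either Control library (edgeR adjusted p up to 0.082), and th had 0 reads in all 5 libraries. Among the other monoamine genes, comta, of a methyltransferase that inactivates catecholamines, changed by -0.86 (61.4% of its reads were intron reads) and slc22a2, an organic cation carrier gene, by -1.47, both past edgeR's test. The call of comta was lost without Control replicate 1 (edgeR adjusted p = 0.058), and that of slc22a2 without either Control library or without 24h replicate 2 (edgeR adjusted p = 0.053 to 0.16). The copy comtb was at 9.27 ± 2.68 TPM (SD, n = 3) in 24h and 14.3 ± 4.30 TPM (SD, n = 2) in Control and did not pass. The amine carriers slc6a2 (log2 fold change 1.08, edgeR adjusted p = 0.14) and slc29a4 (0.86, edgeR adjusted p = 0.084) had higher means in 24h libraries and did not pass either.

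**Figure D3:**
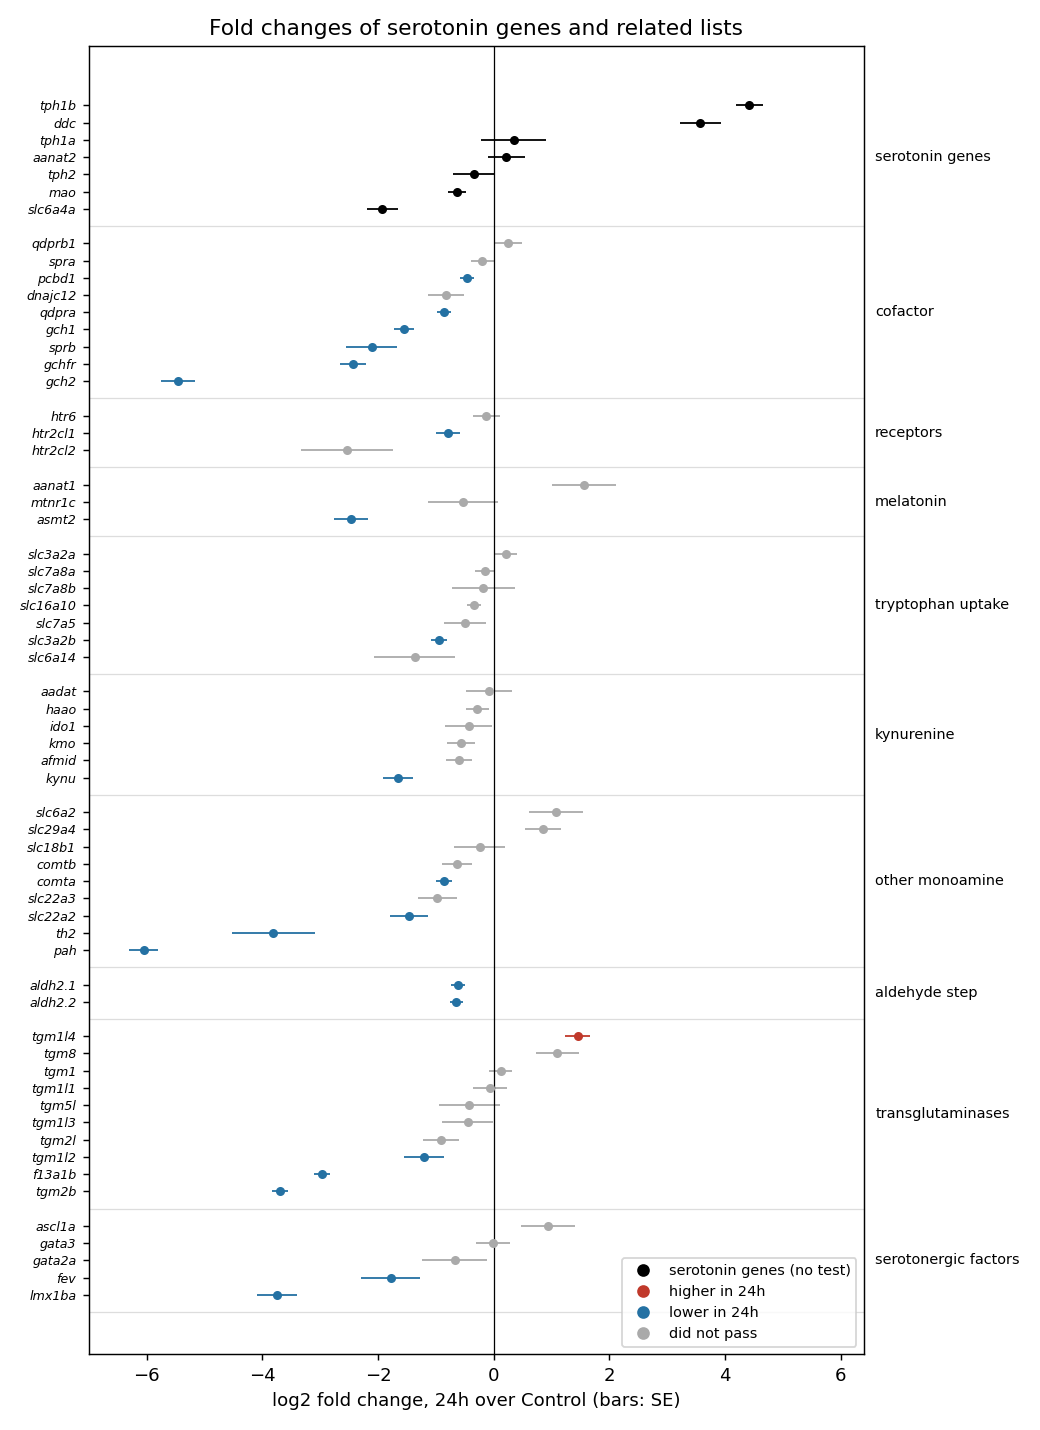
Log2 fold change of 24h over Control (points) with its standard error (bars) for the 7 serotonin genes that passed the low-count filter and for 54 genes of 9 related lists. The serotonin genes are in black with no test, and red, blue and grey mark related genes that edgeR called higher, called lower or did not call. tph1b and ddc lie at 4.42 and 3.57, while 21 of the 54 related genes are called lower.

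Serotonin receptor genes were scarce. Of 22 receptor symbols 15 matched a row, and of these 3 passed the filter. The receptor gene htr2cl1, of the 2C type, had the highest level, with 1.74 ± 0.104 TPM (SD, n = 3) in 24h and 2.36 ± 0.756 TPM (SD, n = 2) in Control. The log2 fold change of its total reads was -0.79 ± 0.21 (SE, edgeR adjusted p = 0.033). Intron reads made up 37.6% of them, and on exon reads alone the call was lost. Its adjusted p over the alternatives tried ran from 0.025 to 0.45. The gene htr6, at 0.645 ± 0.0747 TPM (SD, n = 3) in 24h and 0.778 ± 0.0587 TPM (SD, n = 2) in Control, had 87.3% intron reads and did not pass, nor did htr2cl2 (log2 fold change -2.54, edgeR adjusted p = 0.055). The gene htr7a was at 0 reads in 24h and at 29 in Control, at least 16.9-fold lower in 24h when 3 reads over the group are taken as the floor. The genes htr1fb, htr2b and htr3b had 0 reads in all 5 libraries.

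On the supply side, the tryptophan carrier genes differed widely in level, down to slc6a19b with 10 reads in each group. Of 7 tested, 1 was lower, beside 14.8% of all genes tested. This was slc3a2b, the heavy chain that pairs with amino acid carriers (log2 fold change -0.95 ± 0.15 SE, edgeR adjusted p = 0.0038). It was at 127 ± 4.25 TPM (SD, n = 3) in 24h and 251 ± 28.7 TPM (SD, n = 2) in Control. Its copy slc3a2a, at 34.8 and 31.1 TPM on average in 24h and Control, did not pass (log2 fold change 0.21), nor did slc7a5 (-0.49), the light chain for large neutral amino acids, or slc16a10 (-0.34), an aromatic amino acid carrier. In the other route of tryptophan, to kynurenine, 1 of 6 tested genes was lower, beside 14.8% of all genes tested. This was kynu, of kynureninase, with a log2 fold change of -1.66 ± 0.25 (SE, edgeR adjusted p = 0.0038), a call lost without Control replicate 1. The most abundant genes of that route were haao, at 10.7 TPM in 24h and 13.4 TPM in Control on average, and afmid, at 8.26 TPM in 24h and 12.8 TPM in Control, and neither passed. The gene ido1, whose enzyme opens this route, had a log2 fold change of -0.43 ± 0.41 (SE).

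Past the oxidase step, the aldehyde dehydrogenase genes aldh2.1 and aldh2.2 were both lower in 24h libraries, by log2 fold changes of -0.62 ± 0.12 and -0.65 ± 0.11 (SE, edgeR adjusted p = 0.011 and 0.0071). They overlap on the same strand and 79.8% and 82.4% of their reads were unique, so the split between them is uncertain, and both calls were lost without either Control library (edgeR adjusted p up to 0.086). In the melatonin branch, asmt2, a gene of the methyltransferase that completes melatonin, was at 0.854 ± 0.285 TPM (SD, n = 3) in 24h and 5.53 ± 0.240 TPM (SD, n = 2) in Control (log2 fold change -2.47 ± 0.30 SE, edgeR adjusted p = 0.0012). The other acetyltransferase gene, aanat1, was at 1.56, 2.27 and 1.81 TPM in 24h libraries and 0.284 and 1.07 TPM in Control libraries and did not pass (log2 fold change 1.57, edgeR adjusted p = 0.080). Of the 6 melatonin receptor rows, mtnr1c alone was tested and did not pass.

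Transglutaminases crosslink proteins and can also attach serotonin to them. Of 10 tested, 1 was higher and 3 were lower in 24h libraries, beside 9.43% and 14.8% of all genes tested. The higher was tgm1l4, at 46.4 ± 12.96 TPM (SD, n = 3) in 24h and 16.7 ± 0.197 TPM (SD, n = 2) in Control. Its log2 fold change was 1.45 ± 0.21 (SE, edgeR adjusted p = 0.0031). The tissue transglutaminase gene tgm2b (-3.69), the coagulation factor XIII gene f13a1b (-2.97) and tgm1l2 (-1.20) were lower on the log2 scale. The call of tgm1l2 was lost in 9 alternatives, the removal of any library but 24h replicate 3 among them. In f13a1b the means were 16.5 TPM in 24h and 179 TPM in Control, and the most abundant member, tgm5l, at 140.4 ± 77.3 TPM (SD, n = 3) in 24h and 194 ± 93.0 TPM (SD, n = 2) in Control, did not pass. Transcription factor genes of serotonergic neurons were low: lmx1ba was at 0.210 ± 0.0947 TPM (SD, n = 3) in 24h and 2.56 ± 0.254 TPM (SD, n = 2) in Control (log2 fold change -3.74, edgeR adjusted p = 0.00036), and fev, the Pet1 gene, at 0.542 and 1.67 TPM on average in 24h and Control (-1.78, edgeR adjusted p = 0.042). The call of fev was lost on exon reads and without any library but 24h replicate 1 (edgeR adjusted p up to 0.18), and 64.8% of the reads of lmx1ba were intron reads. The gene gata3, the most abundant of that list, differed by -0.01 ± 0.29 (SE), and nkx2.2a had 0 reads.

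The 8 genes whose pattern was nearest to that of tph1b over the 5 libraries were chosen by the Euclidean distance between log2 CPM values centred on each gene's mean, with CPM scaled by edgeR's library factors. Candidates were the 9203 other genes whose log2 CPM averaged at least 3 and whose symbol is no clone name. The 8 were EFCC1 (distance 0.85), fgf20a (0.96), the gene of a fibroblast growth factor, ggt1a (1.35), a gamma-glutamyltransferase gene, rtn4r (1.40), a Nogo receptor gene, chl1b (1.47), a cell adhesion gene of the L1 family, hbegfb (1.51), of an EGF receptor ligand, the homeobox gene dlx4a (1.55) and the endothelin receptor gene ednrbb (1.65), against a median distance of 4.74. Their log2 fold changes ran from 3.06 to 4.17. The nearest, EFCC1, was at 58.3, 102 and 60.96 CPM in 24h libraries and 5.07 and 5.27 CPM in Control libraries, and like tph1b it was highest in 24h replicate 2. The gene ddc, below that level, lay at a distance of 1.43 and was the 19th nearest of the 19033 other genes tested, while tph1a lay at 4.62, aanat2 at 4.65, tph2 at 5.28, mao at 5.56 and slc6a4a at 6.93, beside a median of 4.90. These values describe the 5 libraries, and the reads behind them also chose the set.

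**Figure D4:**
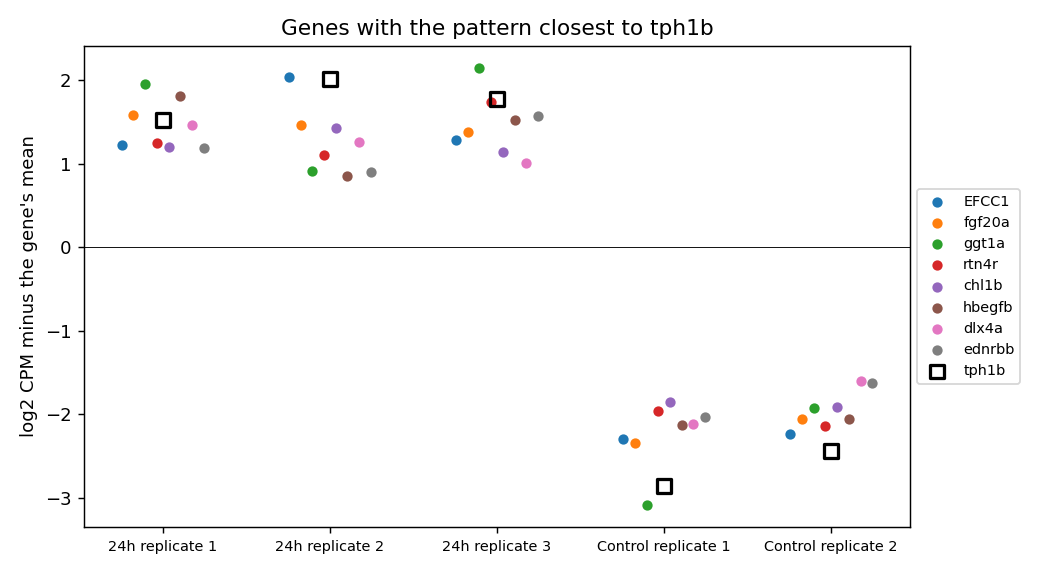
Log2 CPM minus the gene's own mean in each library for tph1b (open black squares) and the 8 genes nearest to it (coloured points). tph1b and EFCC1 are highest in 24h replicate 2, while ggt1a and rtn4r are highest in 24h replicate 3.

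Marker genes of neuroendocrine, nerve, thrombocyte, mast and pineal cells, which can hold serotonin or its genes, were mostly low. Those of blastema, epidermis and osteoblasts summed to more. The counts of marker genes past edgeR's test stand beside 9.43% of all genes tested that were higher and 14.8% that were lower. Of 10 neuroendocrine genes tested, sv2bb and syt1a (71.0% intron reads) were lower and 8 did not pass. The median log2 fold change of the 10 was 0.66. Among the 8, chga (1.03), scg3 (0.88), insm1b (0.87), sv2a (0.76), snap25b (0.66) and snap25a (0.65) had positive values. In the other direction lay chgb (-0.46) and insm1a (-0.20). The 13 rows of that list summed to 19.1 to 22.2 TPM in 24h libraries and 20.2 and 24.9 TPM in Control libraries. The gene scg3 averaged 10.4 TPM in 24h, the highest of the list there, and 5.81 TPM in Control, where sv2bb was higher at 6.86 TPM. Nerve genes summed to 6.26 to 7.97 TPM in 24h and 21.0 and 21.2 TPM in Control. Of 6 tested, sox10, sncga and prph were lower and stmn2b higher, while plp1a (log2 fold change 1.04) and elavl4 (-1.15) did not pass. In prph, which overlaps other genes on both strands, 86.9% of reads were intron reads and 64% were unique. By mean, stmn2b was the highest in 24h and sncga in Control, and nefma and isl1 were at 0 reads. Thrombocyte genes, led by fermt3b, summed to 5.57 to 6.29 TPM in 24h libraries and 8.07 and 8.33 TPM in Control libraries. Of 4 tested, mpl was lower, from 9 reads in 24h and 24 in Control. The other 3 did not pass and differed in direction: gp1bb (log2 fold change 0.89), itga2b (-0.50) and fermt3b (-0.63). In mammals these cells carry the serotonin transporter. Mast cell genes summed to 2.93 to 4.04 TPM in 24h, where cpa5 had the highest mean, and to 7.80 and 8.11 TPM in Control, where kita had, with kita lower among 2 tested. Of 5 pineal rows, crx and otx5 were at 0 reads, apart from 2 intron reads in a second row named crx, and gnat2 at 1.06 TPM in 24h and 0.336 TPM in Control was the most abundant. Blastema and distal mesenchyme genes summed to 5046 to 6418 TPM in 24h libraries, where fn1b was the most abundant. They summed to 2532 and 3105 TPM in Control libraries, where mdka was. Of the 12, 5 were higher: fn1b, msx2b, fgf20a, aldh1a2 and lepb. The 3 lower were twist2, prrx1b and prrx1a (log2 fold changes -1.71, -1.09 and -0.53). The other 4, msx1b, msx3, mdka and tnc, did not pass. Osteoblast genes summed to 159 to 248 TPM in 24h, where spp1 was the most abundant, and to 9854 and 10097 TPM in Control, where col10a1a was, with 4 of 6 lower. Of 6 epidermis genes 4 were higher, while epcam (log2 fold change 0.60) and krt5 (-0.38), the most abundant, did not pass. The epidermis sums overlapped, at 26551.9 to 30385.5 TPM in 24h libraries and 29541.3 and 34328.5 TPM in Control libraries. The part of these cell types in the levels of the serotonin genes was not tested.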

How the data were processed

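Each library has its own table of 31540 genes. Per the file headers, the authors deposited whole-number read counts per gene (total, unique, exon, exon-exon and intron reads) together with TPM and RPKM. Deposited TPM summed alike in all libraries, while the read number behind the RPKM was 1 times the gene reads in 24h replicate 1 and 1.10 times in the others. The build was GRCz10, per the submitters' processing notes. Aligner, counter and use of strand: not given in the sources used here. RNA was extracted with phenol and a stranded mRNA kit was used, per the labels' protocols.

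Total gene reads of the 5 libraries were fitted with edgeR 4.0.16 in R 4.3.3 (TMM, filterByExpr with a minimum count of 10, robust quasi-likelihood test, Benjamini-Hochberg over 19034 genes at 0.05). The SE is the size of the fold change over the root of its F statistic. The common coefficient of variation was 20.2%. Intervals are exact (scipy 1.17.1) and cover counting error alone. They treat each read as an independent count, and PCR copies were not marked, so they may be too narrow. The code was tested on simulated data. The 16 alternatives changed the scaling, filter, kind of read, test (DESeq2 1.42.0) or scale (limma 3.58.1), or left out abundant genes or 1 library.

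The serotonin genes, the lists and the alternatives were chosen with earlier results of these data known. Named genes are the 9 serotonin genes, related genes past the test, the 2 most abundant of each list, the 8 nearest to tph1b, the most abundant marker of each cell type (both by mean TPM over the 5 libraries) and markers at 0. Other list members were named after their values were seen. Of the list symbols 20 matched no row and were not analysed here.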

Additional observations from a re-analysis of the deposited data

How the results depend on the processing

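Over 16 alternatives the log2 fold change of tph1b ran from 4.22 to 4.66, with both ends reached by leaving out a Control library. With 1 Control library left, that library is assumed to vary like the others. Without 1 library, all genes called numbered 1790 to 4693 (4618 with all libraries), of which 418 to 1740 were higher and 1372 to 2953 lower. These lowest counts came without Control replicate 1. The related genes called numbered 12 to 22 (22 with all libraries), of which 1 to 2 were higher and 10 to 21 lower, and the serotonin genes past the threshold 3 to 4. With all libraries kept, 2 related genes were higher in place of 1 with library size only and in DESeq2's test (tgm8 in both). The same held in limma on log2(RPKM + 1) (aanat1), and the cause was not tested. Of the 22 related genes called, 11 kept the call in each alternative. On the log2(TPM + 1) and log2(RPKM + 1) scales, which understate changes of low genes, ddc was at 2.05 and 1.38 in place of 3.57, and slc6a4a at -1.48 and -1.06 in place of -1.93. The sign of tph1a and tph2 was not the same in all alternatives (-0.04 to 0.92 and -0.64 to 0.02). Depth limits slc18a2, slc6a4b, tph1a and most receptors, which rest on few reads. No paired analysis was possible because no replicate number in the labels links a 24h sample to a Control sample.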

Other observations

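Beside tph1b on chromosome 7 the genes mns1, zgc:153219 and cd81a were tested. The nearest, mns1, lies 5283 bases away on the same strand and was at 7.14 ± 1.32 CPM (SD, n = 3) in 24h libraries and 7.36 ± 1.46 CPM (SD, n = 2) in Control libraries, with a log2 fold change of -0.04 (edgeR adjusted p = 0.91). On the other side kcnc1a, a potassium channel gene 19265 bases away, had 10 reads in 24h libraries and 8 in Control libraries, too few to be tested. Past kcnc1a, 82932 bases from tph1b, cd81a, of a tetraspanin, was lower in 24h libraries by a log2 fold change of -0.54 (edgeR adjusted p = 0.038). It was at 703 ± 51.6 CPM (SD, n = 3) in 24h and 1020.0 ± 149.9 CPM (SD, n = 2) in Control. Past mns1, 15755 bases from tph1b, the log2 fold change of zgc:153219 was -0.01 (edgeR adjusted p = 0.99).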
